A study of Bombyx mori with 4 samples.

Results

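Membrane transporters carry sugars, amino acids, phosphate, choline, metals and other solutes across the plasma membrane and the membranes of organelles. The transporters described here are the 242 gene probes, of 23229 on the array, whose gene symbol, gene description or match description holds the word transporter, cotransporter, symporter, antiporter, solute carrier or permease. Another 24 probes with such a word were left out because they also named ABC, ATP-binding cassette or multidrug proteins, which pump with ATP. Silkworm BmN4-SID1 cells, a derivative of the ovarian BmN4 line that takes up double-stranded RNA by soaking, were treated with double-stranded RNA against 1 of 4 Polycomb group genes and harvested on day 7. The genes were BmSCE (a subunit of PRC1), BmESC (a subunit of PRC2), BmPHO (the DNA-binding subunit of PhoRC) and BmSCM (a Polycomb protein whose complex was in question), and the control was RNAi against EGFP, the gene of a jellyfish fluorescent protein. Knockdown RNA was labelled with Cy5 and EGFP RNAi RNA with Cy3, 1 array was hybridized per knockdown, and each RNA was a pool of 3 experiments. With 1 array per knockdown no p-value can be given for any probe, and every value below is a description of these arrays. No array exchanged the dyes, so a dye effect of a probe cannot be told apart from a change shared by all 4 arrays.

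Most solute carriers work without ATP: a uniporter lets 1 kind of solute run down its gradient, and a symporter or antiporter couples it to a second solute or ion such as sodium or protons. They are grouped in families by sequence, the solute carrier (SLC) families, and a family number often tells the class of substrate. In insects the sugar porters also carry trehalose, the main sugar of the haemolymph, and several families sit not in the plasma membrane but in the Golgi, the lysosome or the inner mitochondrial membrane.

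Nearly all of these names rest on a protein of another species: in 236 of the 242 probes the word stood in the match description alone, and 9 probes carried a silkworm gene number, 8 of which were in the RefSeq gene table. A substrate is therefore that of the matched protein, and a named member is called a match. By words or a family number 45 probes matched amino acid carriers, 36 organic ion carriers, 35 sugar carriers, 34 ion carriers and 20 metal carriers. Another 12 matched phosphate carriers, 11 nucleotide sugar carriers, 4 choline carriers and 4 nucleoside carriers, and 41 had another substrate or none. These groups are rough. The ion group, labelled inorganic ion in the figures, also holds ion-coupled carriers of vitamins, sialic acid, bile acid and dicarboxylates. The organic ion group holds sulfate carriers, and the amino acid group holds dopamine and serotonin carriers. A few matches are not carriers themselves, such as the scaffold protein NHERF-2 (sw03337), an adaptor of an anion exchanger (sw13761) and the arsA ATPase (sw13748). They were kept in the counts because their description holds a word of the rule. None of the 242 probes had a probe sequence among the data, which give sequences for 100 other gene probes.

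The sugar transporter that the study followed with its own primers, probe sw00332, lies outside the word rule, because the array annotation gives it only a mosquito protein number and the term sugar porter activity. It is described beside the members and was not counted among them, and the same holds for sw08430, sw12234 and sw11703, which the tables of the study also name as transporters. Those tables list genes that the study found up-regulated on these same arrays. The rises of these probes, and of sw16320 and sw12575 among the members, were the ground of that choice and are no separate result. The RT-PCR primers designed for the gene of sw00332, BGIBMGA002635, are shown because they fix which sugar transporter is meant. Both are 30 bases long and are written 5′ to 3′ with no base marked.
sense primer: ttcacggtacaacagttttgtggcagcgct
antisense primer: agcatcatcaccatgaagacgagtccaaga

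A probe was called measured on an array when its brighter channel reached 400 intensity units after background subtraction, and risen or fallen when the ratio of knockdown to EGFP RNAi, normalized within the array, passed 2.0-fold, or 1.0 on the log2 scale. Where 4 values stand in a row they follow the order BmSCE, BmESC, BmPHO, BmSCM. Intensities, also summed ones, are given before normalization between the dyes. Equal levels need not give equal intensities: sw09886 had 2822 against 2467 in BmSCE RNAi and a log2 ratio of -0.01. The arrays gave 7434 to 9869 measured gene probes each. The match to extra sex combs (sw12637), the only measured probe named for a targeted gene, had log2 ratios of 0.13, -2.61, -0.33 and -0.68, and the match to sex comb on midleg (sw13820) was not measured on any array. Among markers of the ovary and germ line, 13 of 30 probes were measured on at least 1 array, and their summed intensity ran from 23653 to 38206 in the knockdowns and from 13245 to 16972 in EGFP RNAi. Of these markers 0, 1, 2 and 2 rose and none fell. Fat body, haemocyte, muscle and silk gland markers were measured for 3 of 26, 6 of 17, 12 of 21 and 5 of 10 probes. At most 1 probe of each of these 4 lists rose and at most 1 fell in any knockdown. The summed muscle markers were 28896, 26489, 16067 and 27245 in the knockdowns, lowest in BmPHO RNAi, and 25674 to 29907 in EGFP RNAi. The part of these markers in the results was not tested. Silkworm control probes, printed 49 times each, had a median SD between spots of 0.138, 0.247, 0.0958 and 0.0907 on the log2 ratio. That spread is between spots of 1 hybridization and does not hold the spread between cultures or labellings.

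Transporter probes were dim in these cells. Of the 242, 86 (35.5%) were measured on at least 1 array, against 47.6% of all gene probes, and 38 were measured on all 4. The remaining 156 were under 400 in both channels of every array, which gives a limit to their signal and does not show that the gene is silent. Sugar carriers were measured least often, 6 of 35, and 17 of the 20 probes matched to 1 ant protein, glucose transporter 8, were never measured. Amino acid carriers had the most measured probes, with 21 of 45 on at least 1 array and 9 on all.

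**Figure D1:**
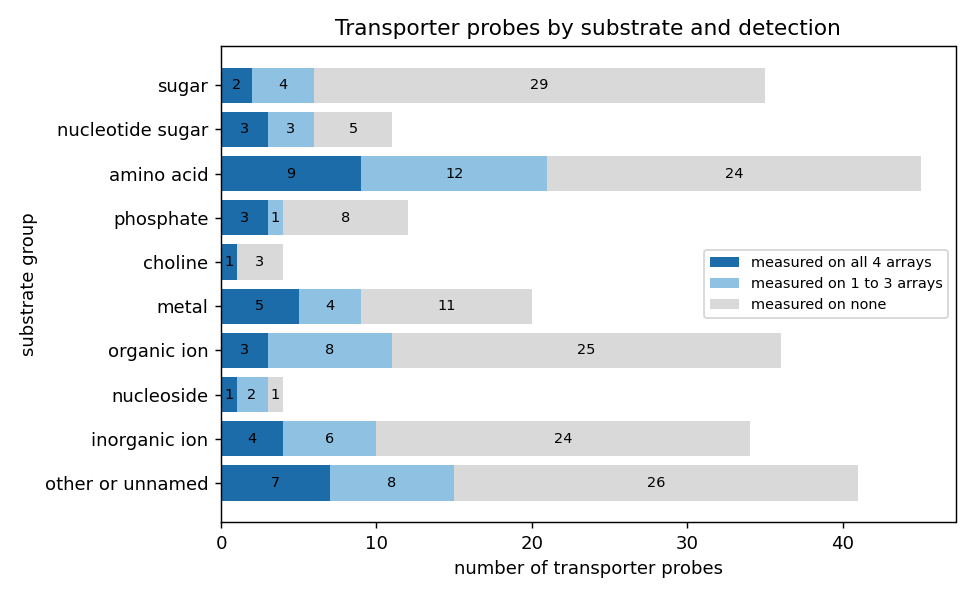
Bars give the number of transporter probes in each substrate group (y axis), split by the number of arrays on which the probe was measured. Sugar carriers have 29 of 35 probes that were not measured on any array, and amino acid carriers have 9 probes measured on all 4.

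In BmSCE RNAi 4 of 51 measured transporter probes rose (7.84%) and 1 fell, while 2.43% of all measured probes rose and 1.1% fell. The counts in BmESC RNAi were 4 risen and 1 fallen of 74, against a background of 4.46% risen and 3.25% fallen. BmPHO RNAi had the most, 8 risen (17.0%) and 7 fallen of 47, where 11.8% of all measured probes rose and 7.84% fell. In BmSCM RNAi 4 rose and 5 fell of 55, with 9.46% risen and 6.29% fallen over all probes. No count is larger than 8 probes, so that 1 probe moves a share by 1.35 to 2.13 percentage points. The median log2 ratio of the measured members was 0.11, 0.04, 0.12 and 0.16, and that of all measured probes was 0.02, 0.02, 0.05 and 0.07. With both channels required to reach 400 the members that rose were 3 of 41, 3 of 52, 5 of 33 and 3 of 38, against 1.67%, 3.31%, 7.59% and 6.64% of all such probes. Those that fell were 1, 0, 4 and 4, against 0.82%, 3.17%, 6.58% and 6.38%. Such a filter removes members that passed through the bright channel of 1 RNA alone: 10, 20, 11 and 16 were measured by the knockdown channel only, and 0, 2, 3 and 1 by the EGFP RNAi channel only.

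Across the 4 arrays 23 members passed 2-fold at least once, 11 upward and 12 downward, and no member did both. They were 26.7% of the 86 members measured on at least 1 array, against 21.6% of all such gene probes.

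**Figure D2:**
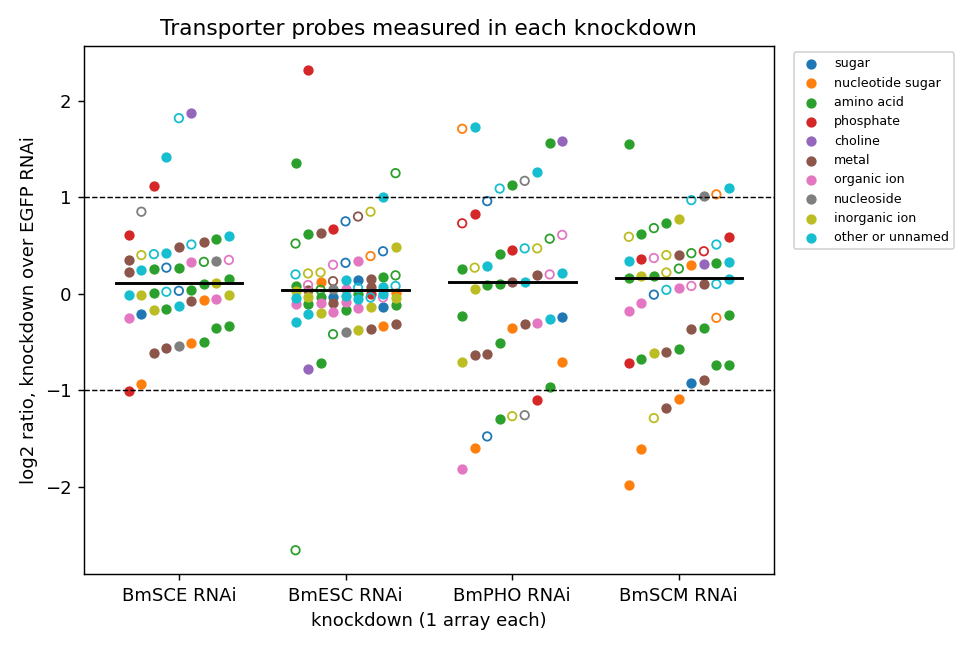
Each point is 1 transporter probe measured on the array of that knockdown (x axis), with its log2 ratio to EGFP RNAi (y axis) and its substrate group by colour; open points have 1 channel under 400, black bars are medians and dashed lines mark 2-fold. Points lie farther from 0 in BmPHO RNAi, where 8 are above and 7 below the dashed lines, than in BmSCE RNAi, where 4 are above and 1 below.

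The 1 member that rose on all 4 arrays was sw03327, a match to SLC25 member 36. SLC25 proteins are carriers of the inner mitochondrial membrane, and member 36 carries pyrimidine nucleotides in mammals. Its knockdown intensities were 6726, 5516, 6970 and 4552, beside EGFP RNAi intensities of 2166, 2112, 2099 and 1853. Every knockdown value lay above every EGFP RNAi value. The log2 ratios were 1.42, 1.00, 1.73 and 1.10, and that of BmESC RNAi only just passed the threshold, with a range of 0.92 to 1.04 over the other normalizations and floors. In BmSCM RNAi it came under the threshold with median centring (0.83) and with the deposited ratio (0.89). The 4 arrays share the EGFP RNAi reference and the same dye order, so that they are not independent checks of each other.

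Of the other 15 members of the SLC25 family or named as mitochondrial carriers, 6, 7, 5 and 4 were measured, with medians of 0.34, -0.05, 0.29 and 0.34. In BmPHO RNAi 1 of 5 rose and 1 fell, where 11.8% of all measured probes rose and 7.84% fell. None passed 2-fold in the other knockdowns. A match to SLC25 member 16 (sw03450) gave 0.42, 0.00, 1.09 and 0.51, and its EGFP RNAi intensity of 318 on the BmPHO array was dim, so that the rise there was at least 1.69-fold. Matches to SLC25 member 35 (sw11027) and to the mitochondrial oxodicarboxylate carrier (sw11625) ran from -0.21 to 0.60 and from -0.02 to 0.33. A match to the mitochondrial deoxynucleotide carrier (sw13754) had knockdown intensities of 455, 603, 282 and 233 and EGFP RNAi intensities of 564, 638, 577 and 358. The knockdown channel was the lower on all 4 arrays, and the log2 ratios were -0.54, -0.40 and -1.26 where it was measured, in all knockdowns but BmSCM RNAi. In BmPHO RNAi the fall was at least 1.46-fold, since the knockdown channel was dim there.

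Choline transporters supply the precursor of phosphatidylcholine, a major membrane phospholipid, and the choline transporter-like proteins are sodium-independent carriers. The match to choline transporter-like protein 4 (sw10856) was the 1 choline member measured. Its knockdown intensities were 9429, 1726, 5313 and 3058. In EGFP RNAi it was 2212, 2276, 1752 and 2122 on the same arrays, so that the reference stayed near 1 level and the knockdowns spread over a wide range. The log2 ratios were 1.87, -0.78, 1.58 and 0.31: the probe rose in BmSCE and BmPHO RNAi, was below EGFP RNAi in BmESC RNAi by less than 2-fold, and was within 2-fold in BmSCM RNAi. Levels of each channel, set to 1 brightness distribution across arrays, had an SD of 1.11 on the log2 scale over the knockdowns and 0.16 over the EGFP RNAi channels. The 3 other choline members, 2 matches to the high affinity choline transporter and 1 to the vesicular acetylcholine transporter, both known from nerve endings, were not measured.

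A probe outside the rule, sw12234, which the study names as choline transporter-like protein 1, had knockdown intensities of 418, 473, 869 and 844 and EGFP RNAi intensities of 279, 414, 216 and 247. Its log2 ratios were 0.32, -0.11, 1.79 and 1.15. The EGFP RNAi channel was dim in BmPHO and BmSCM RNAi, where the rise was at least 1.86-fold and at least 1.37-fold.

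The list of choline-using proteins holds kinases and transferases that turn choline into phosphatidylcholine. By shared words it also holds matches to ethanolamine kinase (sw07303), phospholipase A2 (sw00954) and phosphatidylcholine:ceramide cholinephosphotransferase (sw12054). Of its 14 probes 5, 7, 4 and 5 were measured. The only one to pass 2-fold was a match to cholinephosphate cytidylyl transferase (sw09278), the regulated enzyme of phosphatidylcholine synthesis, which gave 0.54, 1.67, 0.84 and 0.68. That transferase passed in BmESC RNAi, where 4.46% of all measured probes rose, and none of the list fell past 2-fold. A match to choline/ethanolamine phosphotransferase (sw17552), the last enzyme of the route, was below EGFP RNAi at -0.73, -0.45, -0.58 and -1.00. The list medians were -0.03, 0.07, 0.57 and 0.23.

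Sodium-coupled cotransporters bring inorganic phosphate into cells. The 3 phosphate members measured on all arrays did not move as a group. A match to a putative fly phosphate cotransporter (sw13967) had knockdown intensities of 1709, 4380, 919 and 1180 and EGFP RNAi intensities of 678, 672, 597 and 549. All knockdown values were above all EGFP RNAi values, and BmESC RNAi stood far above the other knockdowns. Its log2 ratios were 1.12, 2.32, 0.45 and 0.59, the value of BmESC RNAi being the highest of any member on any array. The SD across arrays was 0.83 in the knockdown channel and 0.03 in the EGFP RNAi channel.

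A second probe with the same fly match, sw20203, went the other way. Its knockdown intensities were 1826, 3650, 881 and 1689 and its EGFP RNAi intensities 3180, 2806, 1740 and 2289, with log2 ratios of -1.01, 0.00, -1.10 and -0.72. It fell past 2-fold in BmSCE and BmPHO RNAi, by little more than the threshold in each: the range over the other normalizations and floors was -1.13 to -0.99 in BmSCE RNAi and -1.15 to -0.97 in BmPHO RNAi. The knockdown with its highest ratio, BmESC RNAi, was also the one in which sw13967 was highest. A match to SLC37 member 2 (sw19691), a phosphate-linked sugar phosphate exchanger of the endoplasmic reticulum in mammals, had knockdown intensities of 3123, 3136, 2897 and 2367 against 1776, 1510, 1575 and 1508. It was above EGFP RNAi on every array by less than 2-fold, at 0.61, 0.67, 0.83 and 0.36. The other 8 phosphate members, with 4 more matches to the same fly cotransporter, were not measured on any array, and 1 was measured in BmPHO and BmSCM RNAi only, at 0.73 and 0.44.

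**Figure D3:**
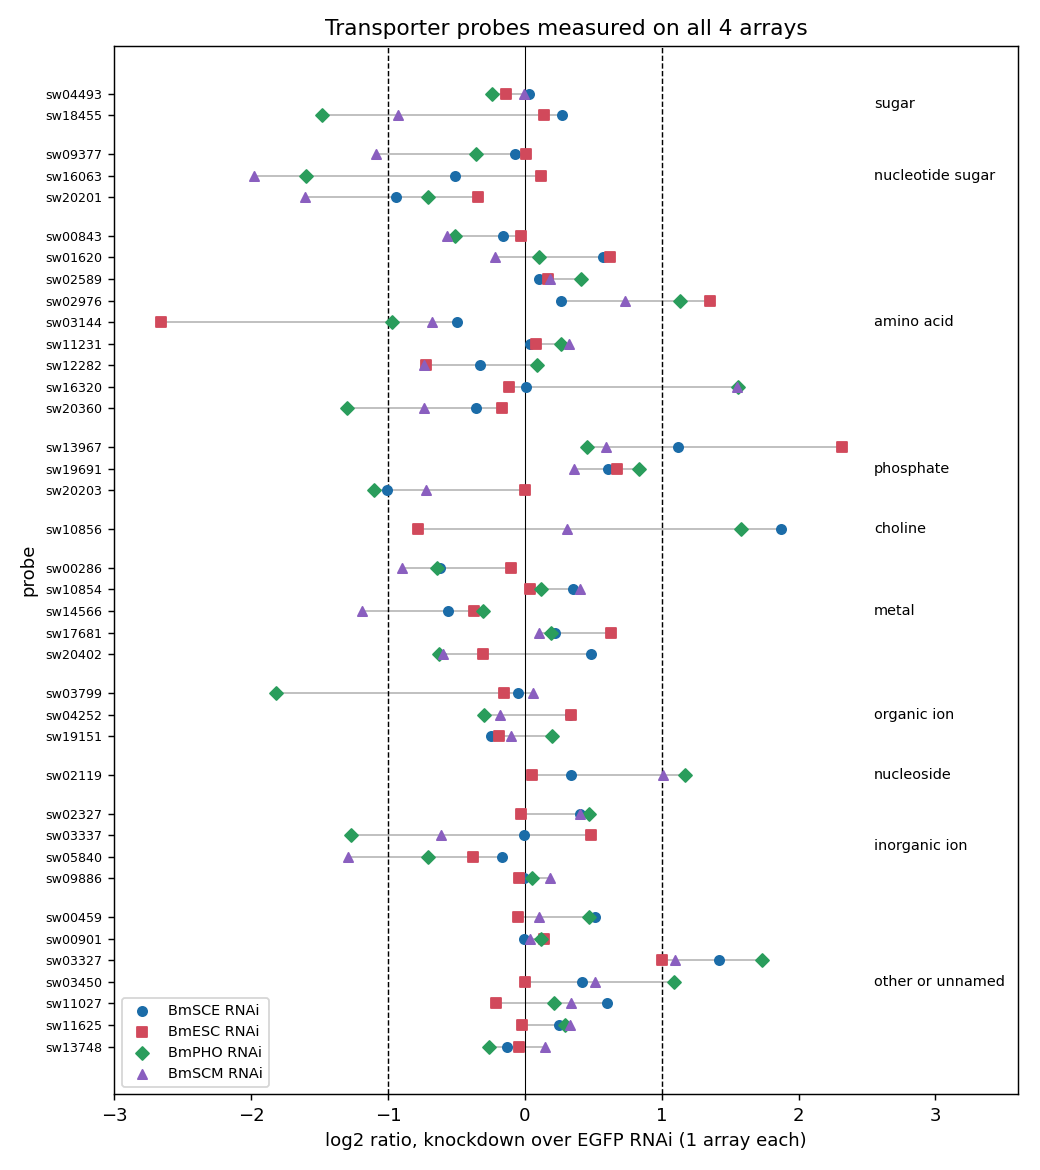
Log2 ratios to EGFP RNAi (x axis) of the 38 transporter probes measured on all 4 arrays (y axis), grouped by substrate, with 1 marker per knockdown, a grey line over their range and dashed lines at 2-fold. The probe sw03327 has its 4 markers at or past the right dashed line, sw10856 has markers on both sides of 0, and sw03144 has 1 marker at -2.66.

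Amino acid carriers are the largest substrate group here. In BmSCE RNAi none of 12 measured passed. In BmESC RNAi 2 of 16 rose and 1 fell, in BmPHO RNAi 2 of 11 rose and 1 fell, and in BmSCM RNAi 1 of 15 rose and none fell. Of all measured probes 4.46%, 11.8% and 9.46% rose in these 3 knockdowns and 3.25%, 7.84% and 6.29% fell. The group medians were 0.07, 0.02, 0.10 and 0.18.

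The SLC7 family holds the cationic amino acid carriers and the light chains of the heteromeric exchangers. A match to SLC7 member 5 (sw02976), in mammals the light chain of an exchanger of large neutral amino acids, had knockdown intensities of 7451, 13546, 11249 and 7661 and EGFP RNAi intensities of 5288, 4075, 5244 and 4364. All 4 knockdown values were above the EGFP RNAi values. The log2 ratios were 0.26, 1.35, 1.13 and 0.73, past 2-fold in BmESC and BmPHO RNAi, the latter at 0.96 with median centring. A match to another light chain, SLC7 member 9 (sw20360), part of the cystine carrier of the mammalian kidney, had knockdown intensities of 2920, 3093, 935 and 1894 against 3248, 2669, 2156 and 2652. Its log2 ratios were -0.36, -0.17, -1.30 and -0.74, a fall past 2-fold in BmPHO RNAi. The match to an amphibian light chain (sw11231) stayed near 0, from 0.04 to 0.32.

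SLC6 carriers take up neurotransmitters, amino acids and related osmolytes with sodium and chloride. A match to a glycine carrier of this family, SLC6 member 5 (sw16320), which the study calls a taurine transporter, had knockdown intensities of 2220, 1683, 3592 and 4298 and EGFP RNAi intensities of 1909, 1412, 1175 and 1244. BmPHO and BmSCM RNAi were high and BmSCE and BmESC RNAi lay within the range of EGFP RNAi or slightly above it. The log2 ratios were 0.01, -0.12, 1.56 and 1.55. A second match to SLC6 member 5 (sw01539) was measured in BmSCM RNAi only, at 0.62. A match to SLC6 member 9 (sw03144), the other glycine carrier of mammals, had knockdown intensities of 1397, 336, 846 and 1144 and EGFP RNAi intensities of 1713, 1677, 1522 and 1390. It was below EGFP RNAi on all arrays, with log2 ratios of -0.50, -2.66, -0.97 and -0.68, and the knockdown channel was dim in BmESC RNAi, where the fall was at least 3.89-fold. That log2 ratio was the lowest of any member on any array, and the other normalizations and floors gave -2.68 to -2.21. Its SD across arrays was 1.10 in the knockdown channel and 0.11 in the EGFP RNAi channel. A second match to SLC6 member 9 (sw08765) was measured in BmSCM RNAi only, at 0.42 with a dim EGFP RNAi channel.

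Further fly neurotransmitter transporter matches did not pass 2-fold: sw12282 gave -0.33, -0.72, 0.09 and -0.74, and sw08199 gave 0.27, -0.42 and -0.23 on the arrays where it was measured. A match to SLC36 member 1 (sw20503), a proton-coupled amino acid carrier of the lysosome in mammals, had intensities of 618 in BmESC RNAi and 213 in EGFP RNAi. Its log2 ratio there was 1.25, but the EGFP RNAi channel was dim and the rise was at least 1.20-fold. In BmSCE and BmSCM RNAi it gave 0.33 and -0.36. The match to the potassium-coupled amino acid transporter of the hawkmoth midgut (sw01620) was above EGFP RNAi in BmSCE (0.57) and BmESC RNAi (0.62) and near it in BmPHO (0.10) and BmSCM RNAi (-0.22). Matches to glutamate carriers (sw00843, sw02589) stayed within -0.57 and 0.41.

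Among proteins that use amino acids, the list of 34 probes had 13, 13, 13 and 11 measured. In BmSCE RNAi 1 of them rose and none fell, in BmESC RNAi 1 rose and 3 fell, in BmPHO RNAi 4 rose and none fell, and in BmSCM RNAi 1 rose and none fell. Of all measured probes 2.43%, 4.46%, 11.8% and 9.46% rose and 1.1%, 3.25%, 7.84% and 6.29% fell. Asparagine synthetase (sw11016) gave 0.86, 2.02, 1.48 and 1.49. It makes asparagine from aspartate and passed 2-fold in all knockdowns but that of BmSCE. A match to glutamine synthetase (sw03153) rose in BmPHO RNAi alone, with 0.38, -0.40, 1.14 and 0.50, and glutamate dehydrogenase (sw12457) gave -0.22, -0.08, 1.05 and 0.61. Aspartate aminotransferase (sw10674) was below EGFP RNAi on every array and past 2-fold in BmESC RNAi (-1.31).

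**Figure D4:**
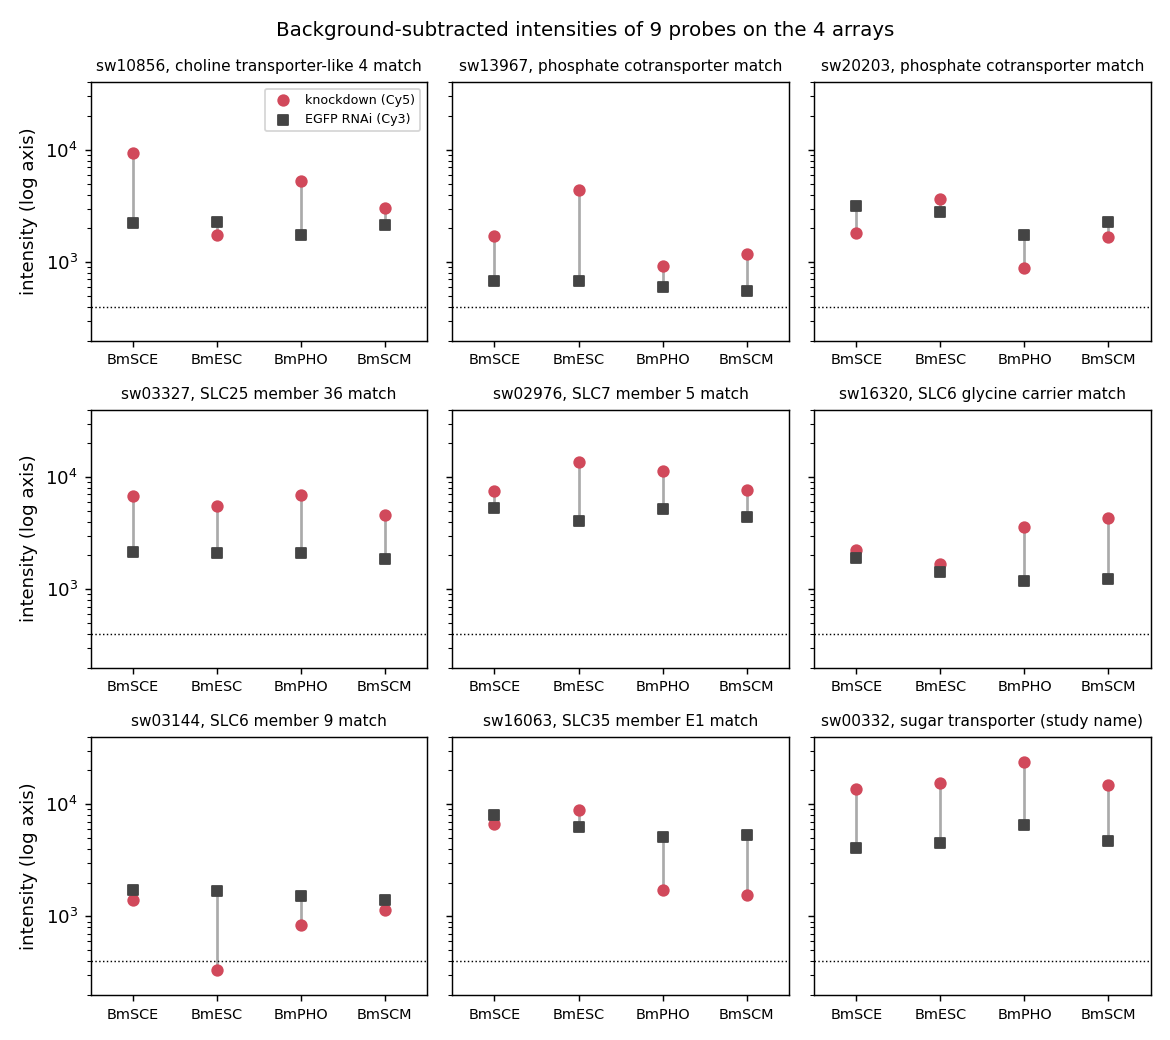
Background-subtracted intensity (y axis, log scale) of 9 transporter probes in the knockdown (circles) and in EGFP RNAi (squares) on the array of each knockdown (x axis), with the dotted line at 400. The 2 phosphate cotransporter probes, sw13967 and sw20203, separate from EGFP RNAi in opposite directions in BmSCE RNAi, and sw16063 is low in BmPHO and BmSCM RNAi while its EGFP RNAi values stay between 5127 and 8085.

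Few sugar carriers by the word rule were measured: of 35, 3, 6, 3 and 2, with medians of 0.03, 0.23, -0.24 and -0.47. None rose, while 2.43%, 4.46%, 11.8% and 9.46% of all measured probes rose. The only fall was 1 of 3 in BmPHO RNAi, where 7.84% of all measured probes fell. So few probes do not show whether sugar carriers changed less often than other probes. The brightest, an ant glucose transporter 8 match (sw18455), had knockdown intensities of 525, 965, 191 and 426 and EGFP RNAi intensities of 370, 691, 449 and 529. It was above EGFP RNAi in BmSCE and BmESC RNAi and below it in BmPHO and BmSCM RNAi, with log2 ratios of 0.27, 0.14, -1.48 and -0.93. With a dim knockdown channel in BmPHO RNAi its fall was at least 1.13-fold. A second probe of the same match (sw04493) ran from -0.24 to 0.03 over the 4 arrays. A rat glucose transporter match (sw22148) gave 0.44 and 0.96 in BmESC and BmPHO RNAi, both with a dim EGFP RNAi channel.

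The sugar transporter sw00332 was chosen by the study because it rose on these arrays, so it is no fair contrast to the carriers above. Its knockdown intensities were 13736, 15464, 23818 and 14797 and its EGFP RNAi intensities 4047, 4487, 6594 and 4712. It rose on all 4 arrays, with log2 ratios of 1.52, 1.40, 1.90 and 1.62, and the other normalizations and floors gave 1.19 to 2.19. Both channels were far above 400. Across arrays the EGFP RNAi channel of this probe had an SD of 0.35 and the knockdown channel one of 0.54. The second sugar transporter of the study outside the rule, sw08430, had knockdown intensities of 1564, 3246, 1296 and 1578 against 720, 820, 800 and 631. It was above EGFP RNAi on all arrays and past 2-fold in BmESC RNAi, with 0.91, 1.61, 0.56 and 0.86.

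Both sw00332 and sw08430 carry the term sugar porter activity, which 6 members and 32 probes outside the rule share. Many of these 32 are not sugar carriers by name. Of the 32, 12, 14, 10 and 14 were measured, 1, 2, 3 and 3 rose and 0, 0, 2 and 1 fell, with medians of 0.05, 0.05, 0.15 and 0.26. The 32 include sw00332 and sw08430, which the study chose because they rose on these arrays. The 1 rise in BmSCE RNAi was sw00332, and the 2 in BmESC RNAi were sw00332 and sw08430. The probe sw00332 was also among those risen in BmPHO and BmSCM RNAi, so the risen counts are no separate result. Over all measured probes 2.43%, 4.46%, 11.8% and 9.46% rose and 1.1%, 3.25%, 7.84% and 6.29% fell.

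Proteins of sugar use, from trehalose and glycogen breakdown through glycolysis, were found by words for 41 probes, a few of them matched by a shared word only, such as L-threonine aldolase. Over all measured probes 2.43%, 4.46%, 11.8% and 9.46% rose and 1.1%, 3.25%, 7.84% and 6.29% fell. Of the 18, 20, 16 and 18 measured in this list none rose, and 0, 1, 0 and 1 fell. A match to glycogen phosphorylase (sw20784), which releases glucose phosphate from glycogen, accounted for both, with -0.79, -1.00, -0.23 and -1.15. The list medians were -0.21, -0.06, -0.08 and -0.35. Triosephosphate isomerase (sw11392), a glycolytic enzyme, was below EGFP RNAi on all arrays by less than 2-fold, at -0.42, -0.73, -0.56 and -0.77.

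Nucleotide sugar carriers of the SLC35 family bring activated sugars or related nucleotides from the cytosol into the Golgi and the endoplasmic reticulum, where proteins are glycosylated. In this group 3, 4, 4 and 6 were measured, with medians of -0.51, 0.06, -0.54 and -0.67. None passed 2-fold in BmSCE or BmESC RNAi. In BmPHO RNAi 1 fell and 1 rose, where 7.84% of all measured probes fell and 11.8% rose. In BmSCM RNAi 3 of 6 fell and 1 rose, where 6.29% of all measured probes fell and 9.46% rose. The 3 that fell matched proteins named by an SLC35 number and not by a nucleotide sugar, and the 1 that rose was a UDP-sugar match. The counts therefore do not describe transport of nucleotide sugars. The match to SLC35 member E1 (sw16063), whose substrate is not settled, had knockdown intensities of 6718, 8933, 1720 and 1554 and EGFP RNAi intensities of 8085, 6304, 5127 and 5357. BmPHO and BmSCM RNAi lay far below all the other values. The log2 ratios were -0.51, 0.12, -1.60 and -1.98, past 2-fold in BmPHO and BmSCM RNAi.

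A match to SLC35 member B1 (sw20201) had knockdown intensities of 435, 752, 586 and 412 and EGFP RNAi intensities of 714, 751, 848 and 839. Its log2 ratios were -0.94, -0.34, -0.71 and -1.61, below 0 on all arrays and past 2-fold in BmSCM RNAi. Another match to SLC35 member B1 (sw04425) went the other way. It was measured in BmESC and BmSCM RNAi only, at 0.39 and 0.30, with 1037 against 586 in BmSCM RNAi. The silkworm protein SLC35 member B3 (sw09377), the counterpart of a Golgi carrier of the sulfate donor PAPS, had intensities of 3535, 3770, 2554 and 1849 against 3205, 2877, 3234 and 3358. It fell in BmSCM RNAi, with -0.07, 0.01, -0.36 and -1.09. A match to a fly UDP-sugar transporter (sw01375) went up instead, with 575 in BmPHO and 802 in BmSCM RNAi against 148 and 256 in EGFP RNAi. The log2 ratios were 1.71 and 1.03. The EGFP RNAi channel was dim in both: the rise in BmSCM RNAi was at least 1.11-fold, and no lower limit held over all normalizations in BmPHO RNAi. The probe sw11703, a GDP-fucose transporter in the tables of the study and outside the rule, was above EGFP RNAi on all arrays, with 0.78, 0.93, 1.21 and 0.89.

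Metal carriers rarely passed 2-fold. Zinc carriers of SLC30 mostly move zinc out of the cytosol, those of SLC39 into it, and SLC41 proteins carry magnesium. Of 7, 9, 5 and 6 measured none rose, while 2.43%, 4.46%, 11.8% and 9.46% of all measured probes rose. The 1 that fell was a match to SLC41 member 1 (sw14566) in BmSCM RNAi, where 6.29% of all measured probes fell. Its knockdown intensities were 1777, 2254, 1882 and 1274 and its EGFP RNAi intensities 2266, 2234, 2242 and 2331, with log2 ratios of -0.56, -0.37, -0.31 and -1.19. The brightest metal member, a match to zinc transporter 5 (sw00286), a carrier of the secretory pathway in mammals, gave -0.62, -0.10, -0.64 and -0.90. A match to SLC39 member 11 (sw17681) was above EGFP RNAi on each array, from 0.10 to 0.63. The match to SLC30 member 9 (sw20402) was above EGFP RNAi in BmSCE RNAi (0.48) and below it in the other 3 knockdowns (-0.31, -0.63 and -0.60).

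Metal handling proteins outside the transporters, such as ferritin, transferrin and superoxide dismutase, were measured for 8, 11, 8 and 9 of 18 probes. None passed 2-fold in BmSCE or BmESC RNAi, 1 rose and 2 fell in BmPHO RNAi and 1 fell in BmSCM RNAi, beside 11.8% risen and 7.84% fallen of all measured probes in BmPHO RNAi and 6.29% fallen in BmSCM RNAi. The 1 that rose (sw08842, 1.03) matched fly ferrochelatase, an enzyme of heme synthesis, while its gene description names an endonuclease and reverse transcriptase-like protein. The list medians were -0.14, -0.12, -0.69 and -0.52. Copper-zinc superoxide dismutase (sw00530), which removes superoxide, gave -0.64, -0.86, -1.13 and -0.86, past 2-fold in BmPHO RNAi alone. A match to a metallothionein (sw06668) gave -0.06, -0.26, -1.08 and -1.48, and was the fall in BmSCM RNAi. The list also holds a match to electron-transferring-flavoprotein dehydrogenase (sw09750), caught by part of a word only.

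Organic ion carriers were measured for 4, 10, 4 and 5 probes and nucleoside carriers for 3, 2, 2 and 1. Among the nucleoside carriers 1 rose and 1 fell in BmPHO RNAi and 1 rose in BmSCM RNAi. Over all measured probes 11.8% rose and 7.84% fell in BmPHO RNAi and 9.46% rose in BmSCM RNAi. The monocarboxylate carriers move lactate and pyruvate with a proton. The match to monocarboxylate transporter 2 (sw03799) had knockdown intensities of 2286, 2451, 455 and 1800 and EGFP RNAi intensities of 2053, 2079, 1436 and 1369. Only the BmPHO value was low, and the log2 ratios were -0.05, -0.15, -1.82 and 0.06. This was the lowest value of any member in BmPHO RNAi. Of the 36 organic ion members 11 were measured on at least 1 array, and sw03799 was the 1 of them that passed 2-fold. It was 1 of 4 measured in BmPHO RNAi, where 7.84% of all measured probes fell. A match to equilibrative nucleoside transporter 4 (sw02119) had knockdown intensities of 1015, 1016, 852 and 2236 and EGFP RNAi intensities of 690, 768, 328 and 860. Its log2 ratios were 0.34, 0.05, 1.17 and 1.01, and the latter pair fell under the threshold with print-tip loess (0.85 and 0.58) and with the deposited ratio (0.57 and 0.77), that of BmSCM RNAi also with median centring (0.92) and a floor of 200 (0.97). In BmPHO RNAi the EGFP RNAi channel was dim and the rise was at least 1.22-fold. A second match to equilibrative nucleoside transporter 4 (sw19565) was measured in BmSCE RNAi only, with 637 against 300 in EGFP RNAi. Its log2 ratio there was 0.85, and with the dim EGFP RNAi channel it was above EGFP RNAi by at least 1.35-fold.

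Of the ion carriers 5, 10, 5 and 7 were measured. None rose, 1 fell in BmPHO RNAi and 1 in BmSCM RNAi, where 7.84% and 6.29% of all measured probes fell. The bright match to an SLC12 carrier of sodium, potassium and chloride (sw09886) ran from -0.04 to 0.18. A match to the potassium chloride cotransporter KCC3 (sw05840) gave -0.17, -0.38, -0.71 and -1.29, with intensities of 327 against 515 in BmSCM RNAi. The knockdown channel was dim there, the fall was at least 1.27-fold, and the log2 ratio came under the threshold with the deposited ratio (-0.90) and with the loess curve from bright probes (-0.64). The NHERF-2 match (sw03337), a scaffold and not a carrier, gave -0.01, 0.48, -1.27 and -0.61, and its fall in BmPHO RNAi, with a dim knockdown channel, was at least 1.81-fold. A match to SLC13, a sodium-dependent dicarboxylate carrier (sw13248), gave 0.85 in BmESC RNAi with a dim EGFP RNAi channel.

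Of the carriers with another substrate, the multivitamin transporter match (sw12575), a sodium/solute symporter in the words of the study, had knockdown intensities of 268, 373, 1149 and 1097 and EGFP RNAi intensities of 297, 385, 425 and 379. It was not measured in BmSCE and BmESC RNAi, rose in BmPHO RNAi (1.26) and gave 0.97 in BmSCM RNAi. The EGFP RNAi channel was dim in BmSCM RNAi, where the rise was at least 1.85-fold and the other normalizations and floors gave 0.97 to 1.18. A second multivitamin match (sw00901) stayed between -0.01 and 0.14. The match to SLC5 member 8 (sw08682) was measured in BmSCE RNAi only, with 547 against 124 in EGFP RNAi, and a log2 ratio of 1.82, for which no lower limit held over all normalizations.

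The knockdowns can also be set against each other directly, through the EGFP RNAi RNA that every array shares. Over the 38 members measured on all arrays, BmSCM and BmPHO RNAi differed by over 2-fold for 2 members (5.26%) and for 2.08% of all probes. BmPHO and BmESC RNAi differed for 12 members (31.6%), against 10.6% of all probes, and BmSCM and BmESC RNAi for 9 (23.7%), against 11.1%. BmESC and BmSCE RNAi differed for 5 members (13.2%), against 4.04%. BmPHO and BmSCE RNAi differed for 6 (15.8%), against 10.2%, and BmSCM and BmSCE RNAi for 7 (18.4%), against 9.32%. The monocarboxylate carrier sw03799 and the choline carrier sw10856 were the 2 that differed between BmPHO and BmSCM RNAi. These 2 arrays also had higher median log2 ratios of the yeast control probes (4.01 and 3.27, against 1.33 in BmSCE and 1.28 in BmESC RNAi), a wider SD of all measured log2 ratios (0.828 and 0.76, against 0.449 and 0.548) and fewer blank spots over 400 (30 and 26, against 71 and 100). The part of these array differences was not tested.

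The spread of the reference channel can be set beside that of the knockdown channel, which holds 4 different RNAs. For the 38 members measured on all arrays, the median SD of the EGFP RNAi level across arrays was 0.187 on the log2 scale, with a range of 0.0316 to 0.757, and the median SD of the knockdown level was 0.38. Over all probes measured on the 4 arrays these medians were 0.17 and 0.342.

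Among the 24 ATP-driven and multidrug transporters left out by the rule, 6, 9, 4 and 5 were measured, 1, 0, 1 and 1 rose and none fell. The same probe rose each time, a match to iron inhibited ABC transporter 1 (sw08321), with 1.03, 0.60, 2.21 and 1.64. The medians of these probes were -0.26, 0.06, 0.29 and 0.11. Of all measured probes 2.43%, 4.46%, 11.8% and 9.46% rose and 1.1%, 3.25%, 7.84% and 6.29% fell.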

How the data were processed

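The intensity columns of the 4 arrays were deposited by the authors as Cy5 (knockdown) and Cy3 (EGFP RNAi) values with the local background subtracted, 1 spot per gene probe, and the arrays were hybridized and scanned by a company for the authors. No source used here gives the image software, or how the deposited ratio column, Cy5 over Cy3, was normalized. The value table of the series, deposited by the authors on the log2 scale, equals the log2 of that ratio. Here intensities under 100 were set to 100 and log2 ratios were normalized by loess within each array over the gene probes with limma 3.58.1 in R 4.3.3. Counts used Python 3.11.15, numpy 2.4.6 and pandas 2.3.3, and figures matplotlib 3.10.9. A probe was measured when its spot flag showed that the brighter channel was at least 400 and the spot was not marked bad. Where a channel was under 400, "at least" gives the fold with that channel set to 400, taken as the smallest over loess, print-tip loess, loess from bright probes, median centring and the deposited ratio, a rule set after the values were seen. Channel levels across arrays used Aquantile normalization after loess. Between 26 and 100 of 382 blank spots per array also passed the minimum of 400, so single dim members are uncertain, and the number of arrays limits the precision. On simulated spots with 3- or 4-fold changes, 187 of 193, 194 of 197, 195 of 199 and 194 of 197 changed probes were called. The changed spots were drawn from those with an EGFP RNAi channel of at least 400. Changes near 2-fold and changed spots dim in EGFP RNAi were not simulated, so these shares do not describe such calls.

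With 1 array per knockdown no test was possible. The members and lists were chosen with earlier results of these data known. Text names cover the probes of interest given at the outset, the transporters in the tables of the study, the 5 highest and 5 lowest members per knockdown, members past 2-fold on all arrays and the brightest of each substrate group; other members and partner genes were named after their values were seen. In all 12 alternatives were tried, among them the deposited ratio. The arrays carry no cross-hybridization note for these members, so related carriers may share signal. RefSeq gene names came from a table given with the data and served for names only.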

Additional observations from a re-analysis of the deposited data

Results flagged for a closer look

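The match to choline transporter-like protein 4 (sw10856) drew attention because the groups moved in opposite directions under the same contrast. Its log2 ratio to EGFP RNAi was 1.87 in BmSCE RNAi and -0.78 in BmESC RNAi, a difference of 2.65, while the EGFP RNAi intensities on these arrays were 2212 and 2276. The difference between the knockdowns was not tested, since each has 1 array. No other member passed 2-fold in one knockdown and lay more than 0.5 log2 units the opposite way in another.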

How the results depend on the processing

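Over the 12 alternatives, 103 of the 132 recomputed counts and medians stayed within 1.5 times the reported count or within the spot SD of the reported median. Among the values of single probes 653 did so, 260 moved and 3 turned sign. With both channels at 400 or more, 5 members rose and 4 fell in BmPHO RNAi and 0 fell in BmESC RNAi. Without the flag filter 4 fell in BmSCE RNAi, and the median was 0.00 in BmPHO and in BmSCM RNAi, with the dim probes added. The fall of sw20203 in BmSCE RNAi, the 1 fall there, ended with a floor of 50 (0 fallen) and with the loess curve from bright probes (0 fallen). That curve, chosen after seeing the data, also gave 11 risen and a median of 0.37 in BmSCM RNAi, where the share of all probes risen was 18.2%; the cause was not tested. Print-tip loess gave a median of 0.22 in BmPHO RNAi. At 1.5-fold 7 rose and 3 fell in BmSCE, 10 rose and 3 fell in BmESC, 12 rose and 12 fell in BmPHO, and 11 rose and 13 fell in BmSCM RNAi, while 8.45%, 11.5%, 23.3% and 22.7% of all probes rose and 6.47%, 9.49%, 19.4% and 18.5% fell. Relative to the mean of the other 3 arrays 0 fell in BmSCE RNAi, 3 fell in BmESC RNAi, 5 rose and 3 fell in BmPHO RNAi, and 2 rose and 1 fell in BmSCM RNAi with a median of -0.02. By its construction this setting removes what the arrays share: sw00332 gave -0.12 in BmSCE and -0.29 in BmESC RNAi and sw03327 gave -0.28 in BmSCM RNAi. Only 15 of 41 calls of named probes passed 2-fold in it, against 29 with both channels at 400 or more and 34 to 40 under the other normalizations and floors. Limited to names in the symbol or gene description, the rule left 1 measured member per array and 0 risen in each knockdown. Counting the 4 study-named probes as members, also chosen after seeing the data, left all counts within 1.5 times. The sw08430 rise in BmESC RNAi was 3.08 by the deposited ratio. Leaving out a replicate could not be run, and no paired analysis was possible because each knockdown has 1 array. The dim signal of 156 members limits the whole account.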
